A study of Arabidopsis thaliana with 2 samples.

Results

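UDP-glycosyltransferases (UGTs) move a sugar from a UDP-sugar donor onto a small molecule such as a hormone, a flavonoid or a phenylpropanoid. The product is usually more soluble, often inactive as a signal, and can be stored in the vacuole. Plants hold a large family of these genes, many of them in tandem rows, and in Arabidopsis they set free levels of salicylic acid, jasmonates, cytokinins, auxin and abscisic acid and decorate flavonols and sinapate. The genes described here are the 119 loci, of 21808 listed, whose deposited product name contains UDP-glycosyltransferase, UDP-glucosyltransferase or UDP-glucosyl transferase. AT1G24100 and AT2G31790 were left out.

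Polyadenylated RNA came from whole Arabidopsis thaliana seedlings aged 10 days, either wild type or carrying mutations in both CRWN1 and CRWN2 (crwn1 crwn2), which encode nuclear lamina proteins. Each genotype had 1 library, so no difference below has a replicate check, no p-value was computed, and harvest or library preparation cannot be told apart from genotype. The libraries held 2094440 and 2203650 uniquely placed reads. The labels do not give the mutant alleles, the number of plants pooled or whether strand was kept. In whole seedlings, fewer cells of a type and less RNA per cell cannot be told apart.

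The targeted genes were checked first. CRWN1 dropped from 1021 wild-type reads to 57 in the library labelled crwn1 crwn2, 18.8-fold fewer for equal totals (exact 95% interval 14.4 to 25.1). CRWN2 had 148 and 9 reads, 17.3-fold fewer (8.87 to 38.6). Throughout, a gene counted as measured once either library gave it 10 reads and an RPKM (reads scaled by model length and library total) of 1, the expression floor. A gene was called when log2 of RPKM + 1 differed by at least 2-fold and the exact 95% interval of the read ratio excluded equality, and these intervals cover counting error only. Marker genes also differed between the libraries. Root markers, 15 of them measured, included 8 called higher in crwn1 crwn2 (6.34% of all measured loci were) and none called lower. The 8 were EXPA7, EXPA18, PRP3, LRX1, COBL9, RBOHC, CASP1 and CASP2. Of the 8, 7 passed the expression floor only through crwn1 crwn2, and CASP2 was not called after trimmed mean of M-values (TMM) scaling. The other 7 were not called, among them SCR (172 wild-type and 232 crwn1 crwn2 reads), SHR (61 and 72), PHO1 (270 and 303) and PYK10 (8598 and 10188). The summed RPKM of the root markers was 2395 against 2802 in crwn1 crwn2, most of it from PYK10, and 122 against 242 without that gene. EXPA7, EXPA18 and IRT1 had 0 reads in wild type. None of 4 leaf markers was called, with a summed RPKM of 2528 and 2217. They did not share a direction, since CAB3 had an RPKM of 1610 and 891 but RBCS1A 572 and 806. Of 14 measured touch and wound genes 13 were called lower, where 4.53% of all measured loci were. The other, TCH2, had 740 and 421 reads and was called lower after TMM scaling. The summed RPKM of the touch and wound genes was 7324 and 1944. Their part in the results below was not tested. Gene lists here and below were chosen with earlier results of these data known, so their counts beside all-locus shares are descriptions only.

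The product name gathers more than the plant UGT family proper. Of the 119 genes, 40 carry a numbered or specific product name, 78 are named only as superfamily proteins and 1, ATTPS6, is a trehalose-phosphatase family protein. Among the superfamily names are LEW3, of N-glycan assembly, SETH2, of membrane anchor synthesis, GBSS1, of starch synthesis, and DGD1, of chloroplast galactolipid synthesis, which are glycosyltransferases of other kinds. The coding sequence of each gene in the RefSeq TAIR10.1 reference was translated and searched for the C-terminal signature of plant UGTs with 2 patterns. The first, stricter pattern was found in 64 genes and left out numbered UGTs such as UGT78D1 and UGT76E1. A looser pattern, written after that result was seen, was found in 87 genes, 62 of them shared with the first. Proteins with the looser pattern had a median of 473 residues, and 46 of the 87 genes had 1 coding exon and 35 had 2.

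Upstream sequences are shown for 2 pairs of related genes whose members differed in opposite directions between the libraries, as described further on. They are the 300 bases before the start of the model, read 5′ to 3′ on the gene's strand from the RefSeq TAIR10.1 genome, whose coordinates match the TAIR10 build of the files. The positions are chr1:1702750-1703049 for AT1G05675, chr1:1704692-1704991 for UGT74E2, chr5:24007690-24007989 for UGT76E1 and chr3:17194398-17194697 for UGT76E11, all on the minus strand. Capitals mark the motifs searched on both strands, namely the TGA core TGACG, the W-box core TTGAC, the G-box CACGTG and the AC elements ACCTACC and ACCAACC.
AT1G05675: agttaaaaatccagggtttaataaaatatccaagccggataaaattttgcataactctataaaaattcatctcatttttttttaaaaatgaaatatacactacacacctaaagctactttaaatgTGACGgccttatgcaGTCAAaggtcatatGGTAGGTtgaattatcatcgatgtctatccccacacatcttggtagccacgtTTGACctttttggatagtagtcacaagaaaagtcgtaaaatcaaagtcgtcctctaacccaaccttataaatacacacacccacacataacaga
UGT74E2: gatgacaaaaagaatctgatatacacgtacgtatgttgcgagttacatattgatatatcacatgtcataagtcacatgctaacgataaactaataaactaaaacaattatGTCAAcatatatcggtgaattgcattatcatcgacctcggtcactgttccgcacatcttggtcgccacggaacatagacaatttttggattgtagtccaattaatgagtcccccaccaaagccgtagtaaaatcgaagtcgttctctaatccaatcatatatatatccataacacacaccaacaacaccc
UGT76E1: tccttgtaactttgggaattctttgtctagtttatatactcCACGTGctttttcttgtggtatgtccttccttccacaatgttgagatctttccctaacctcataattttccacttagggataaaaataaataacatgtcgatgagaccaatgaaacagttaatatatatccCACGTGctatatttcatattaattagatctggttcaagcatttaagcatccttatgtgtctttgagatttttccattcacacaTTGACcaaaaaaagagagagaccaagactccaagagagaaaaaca
UGT76E11: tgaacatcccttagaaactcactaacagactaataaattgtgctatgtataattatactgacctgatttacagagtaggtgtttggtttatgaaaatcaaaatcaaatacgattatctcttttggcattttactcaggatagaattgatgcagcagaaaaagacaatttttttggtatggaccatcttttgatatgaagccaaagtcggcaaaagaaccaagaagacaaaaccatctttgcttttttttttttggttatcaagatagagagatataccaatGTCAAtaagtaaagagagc

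AT1G05675 held 1 TGACG, 1 ACCTACC and 2 TTGAC in that window, and its neighbour UGT74E2 held 1 TTGAC. UGT76E1 held 2 CACGTG and 1 TTGAC, and UGT76E11 held 1 TTGAC. Over all 119 genes TTGAC was in 58.8% of windows, against 50.7% of 21677 windows of nuclear loci. The corresponding shares were 28.6% and 24.1% for TGACG, 13.4% and 9.24% for CACGTG, 4.20% and 1.52% for ACCTACC and 5.04% and 3.61% for ACCAACC. A match is a description of these letters only.

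As a group the UGT genes differed little between the libraries. The floor for measurement was passed by 78 of the 119, and by 14393 of all loci. In crwn1 crwn2, 5 UGT genes were higher, where the share of all measured loci was 6.34%, and 2 were lower, where that share was 4.53%. In percent of the measured UGT genes these are 6.41% and 2.56%, the first near its background. The other 71 were not called. Both genes called lower passed the floor only through wild type, whereas all 5 called higher passed it in both libraries. The median log2 ratio of crwn1 crwn2 over wild type was 0.07 (0.12 over all measured loci), and it became -0.05 with TMM scaling, which shifted the median of all loci by -0.13. Reads on the 119 genes summed to 4557 for wild type against 5118 for crwn1 crwn2, a ratio of 1.07 (1.03 to 1.11) that became 0.972 (0.934 to 1.01) after TMM scaling.

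**Figure D1:**
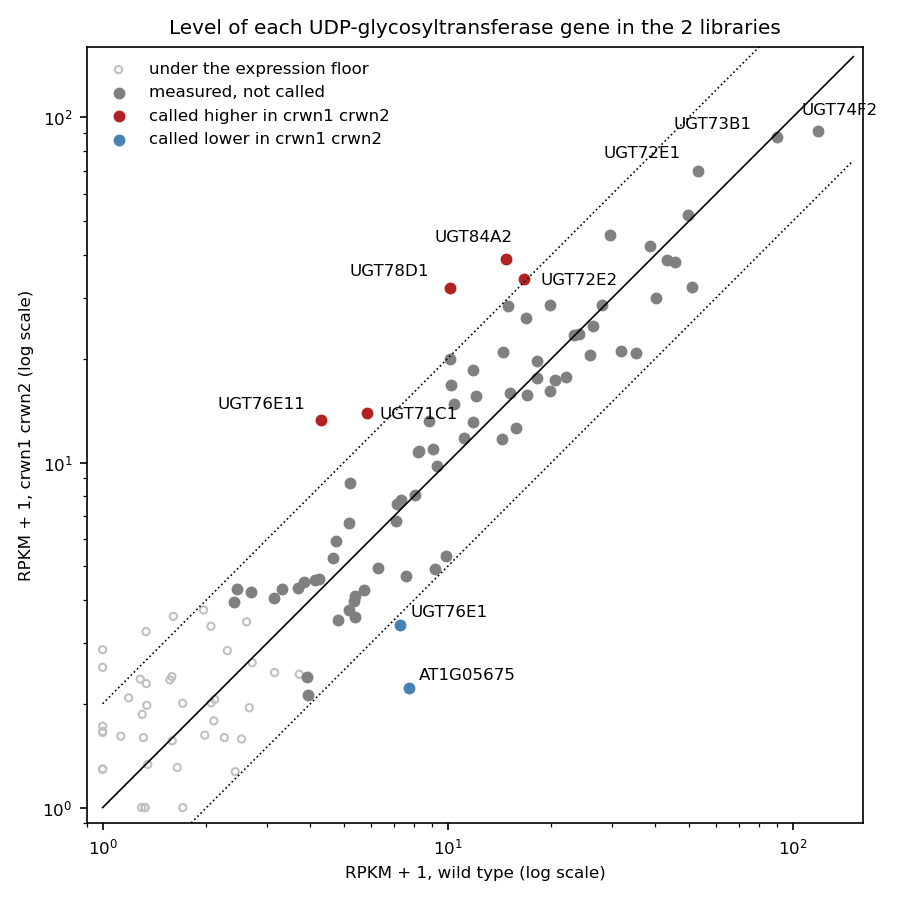
Each point is 1 UGT gene, with RPKM + 1 in wild type on the x axis and in crwn1 crwn2 on the y axis, both on log scales; the solid line marks equal levels and the dotted lines a 2-fold difference. The 5 genes called higher and the 2 called lower lie outside the dotted lines, and the most abundant genes lie near the solid line.

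Levels spanned a wide range, and none of the called genes was among the 8 with the highest RPKM in wild type. In crwn1 crwn2 UGT84A2, called higher, ranked 7 by RPKM. UGT74F2, a salicylic acid glucosyltransferase gene, ranked first in both libraries with an RPKM of 117 (wild type) and 90.2 (crwn1 crwn2). UGT73B1, a stress-responsive gene, followed with 89.4 and 86.8. The 8 genes with the most reads held 39.5% and 35.8% of UGT reads. The median RPKM of measured UGT genes was 9.15 and 12.2, below the 17.2 and 18.4 of all measured loci. The 41 genes under the floor had at most 9 reads in either library. Of the 119, 7 were listed in crwn1 crwn2 only and 4 in wild type only, where a locus with no read is not listed.

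Of 8 measured genes with a known flavonoid or phenylpropanoid substrate, 3 were called higher, against 6.34% of all measured loci. After TMM scaling 1 of 2 flavonoid and 1 of 6 phenylpropanoid genes were higher, against 4.8%. A further 5 measured genes with a listed substrate, none of them called, were left out of all substrate groups because the files and the reference do not annotate their names. Listed flavonoid genes among those left out were AT1G06000 (24 and 34 reads), AT4G14090 (8 and 12) and AT4G27560 (33 and 72). UGT78D1 (AT1G30530, chromosome 1, 10814659 to 10816583), which adds rhamnose to the 3-position of flavonols, had 35 wild-type reads against 125 for crwn1 crwn2. Its RPKM of 9.14 and 31.0 gave a log2 ratio of 1.66, and the read ratio was 3.39 (2.32 to 5.09). This log2 ratio was the highest among measured UGT genes on this scale, but UGT76E11 was above it with a pseudocount of 0.1 (1.87 against 1.75) and in CPM (1.73 against 1.70). UGT78D2, which adds glucose at the same position, had 25 and 41 reads, and its interval of 0.926 to 2.67 included equality.

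UGT84A2 (AT3G21560, chromosome 3, 7595806 to 7597577), the main sinapate glucosyltransferase gene, had 51 and 148 reads. Its RPKM was 13.7 and 37.9, a log2 ratio of 1.40, with a read ratio of 2.76 (1.99 to 3.87). The related UGT84A3 had 152 and 118 reads and a log2 ratio of -0.43, and UGT84A4 had 14 and 27 reads. The 3 genes therefore did not share a direction, and UGT84A3 was the most abundant of them in wild type per length, with an RPKM of 39.3.

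UGT72E2 (AT5G66690, chromosome 5, 26625080 to 26626793), which glucosylates lignin precursor alcohols, had 56 and 125 reads and a log2 ratio of 1.04, with a read ratio of 2.12 (1.54 to 2.96). Its ratio became 0.91 and was not called after TMM scaling. UGT72E1, also in the phenylpropanoid group, had 188 and 262 reads and a log2 ratio of 0.40. UGT72E3, whose coding sequence is 89.5% identical to that of UGT72E2, had 0 and 7 reads and was under the floor. Over the 6 measured phenylpropanoid genes, 2 were called higher and none lower, where 6.34% and 4.53% of all measured loci were. Their median log2 ratio was 0.64. After TMM scaling 1 was higher, when 4.8% of all measured loci were.

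**Figure D2:**
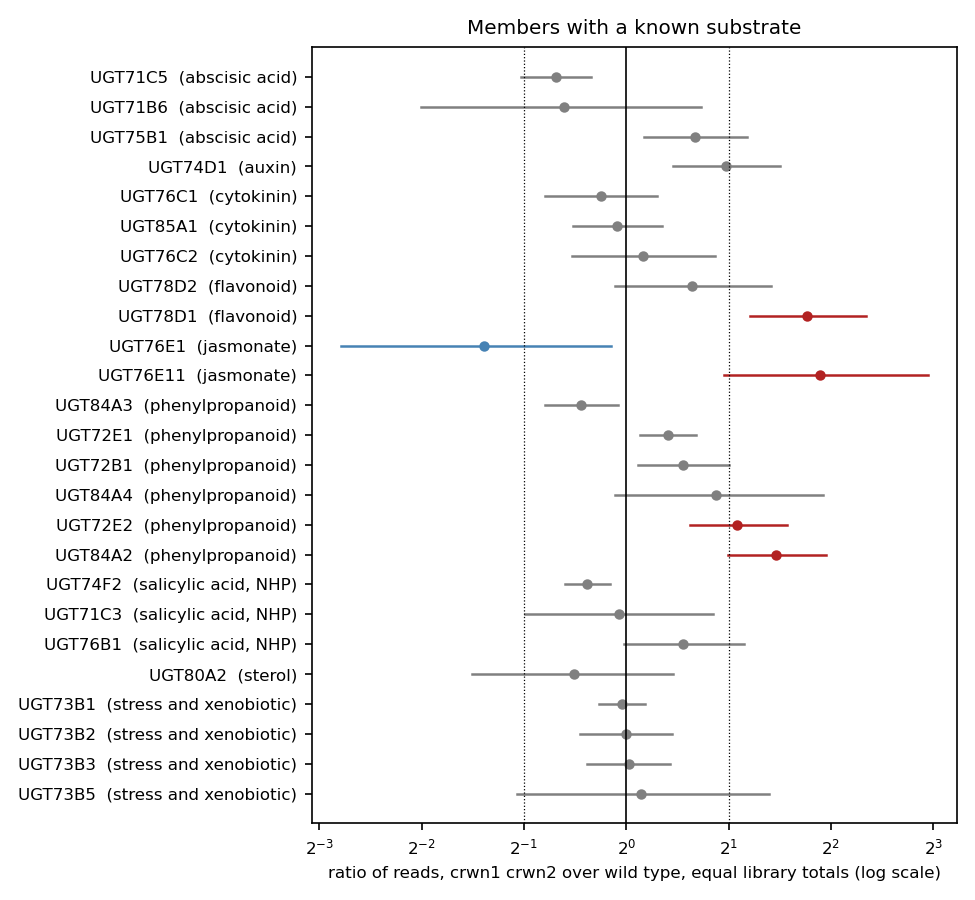
Read ratio of crwn1 crwn2 over wild type for measured UGT genes with a known substrate, on a log scale, with exact 95% intervals as lines; red marks genes called higher, blue genes called lower, and dotted lines a 2-fold difference. UGT78D1, UGT76E11, UGT84A2 and UGT72E2 lie to the right and UGT76E1 to the left, while the UGT73B genes lie near equality.

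The jasmonate genes went both ways. UGT76E11 (AT3G46670, chromosome 3, 17192589 to 17194397) and UGT76E1 (AT5G59580, chromosome 5, 24006079 to 24007689) both encode enzymes that glucosylate hydroxylated jasmonate, and their coding sequences are 72.2% identical. UGT76E11 had 12 and 47 reads, a log2 ratio of 1.63 and a read ratio of 3.72 (1.94 to 7.71). UGT76E1 had 20 and 8 reads, a log2 ratio of -1.10 and a read ratio of 0.380 (0.145 to 0.901). UGT76E2, next to UGT76E1 and 88.5% identical to it, had 9 and 5 reads and was under the floor. These counts are low, and the interval of UGT76E1 ended close to equality.

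Among the 119, no measured gene acting on salicylic acid, abscisic acid, cytokinin or auxin was called. The auxin group held 1 measured gene, UGT74D1. Of listed auxin genes outside the name rule, UGT74E2 was called higher, as given below. IAGLU had 68 and 129 reads, a read ratio of 1.80 (1.33 to 2.46), and was not called. UGT74F2 had 392 and 317 reads, a read ratio of 0.769 (0.661 to 0.894), within 2-fold although its interval excluded equality. UGT76B1, which glucosylates salicylic acid and N-hydroxypipecolic acid, had 42 and 65 reads. Of the 3 abscisic acid genes, UGT71C5 had 185 and 121 reads and a log2 ratio of -0.67, UGT71B6 had 13 and 9, and UGT75B1 had 55 and 92 and a log2 ratio of 0.64. They did not share a direction. The cytokinin genes UGT85A1, UGT76C1 and UGT76C2 had log2 ratios between -0.23 and 0.15.

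UGT74D1, an auxin glucosyltransferase gene, lay just inside the threshold with 47 and 97 reads and a log2 ratio of 0.92. AT4G27560, with 33 and 72 reads, lay closer still at 0.98 and was called higher with a pseudocount of 0.1 or in CPM, and 25.8% of its 49-base words occur elsewhere in the genome, so its reads can be lost to or shared with a copy. On the lower side AT2G36770 had 28 and 14 reads (-0.91) and AT2G36780 had 31 and 16 (-0.88). Those 2 neighbours are 91.3% identical and share 12.3% of such words. Both were called lower with a pseudocount of 0.1. In the group of stress and xenobiotic genes, UGT73B1, UGT73B2, UGT73B3 and UGT73B5 had log2 ratios from -0.04 to 0.12.

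The other called genes were UGT71C1 and AT1G05675. UGT71C1 (AT2G29750, chromosome 2, 12709727 to 12711696) had 20 and 56 reads, a log2 ratio of 1.25 and a read ratio of 2.66 (1.57 to 4.68). AT1G05675 (chromosome 1, 1701116 to 1702749) had 21 and 4 reads, the lowest log2 ratio of the measured UGT genes at -1.80, with a read ratio of 0.181 (0.0452 to 0.537). The neighbouring gene UGT74E2, an auxin glucosyltransferase gene whose product name is outside the rule, had 6 and 42 reads, a log2 ratio of 2.23 and a read ratio of 6.65 (2.81 to 19.2). The 2 coding sequences are 89.5% identical but share 0.989% of their 49-base words, and reads here covered 49 bases. The upstream sequences printed above are those of this pair and of the UGT76E pair.

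Many of these genes sit beside related copies. In 22 rows of genes at most 10 annotated loci apart lay 63 of the 119 UGT genes. Of these rows 3 held a called gene and 0 held more than 1. Rows were built from the 119 genes alone. AT1G05675, called lower, and its neighbour UGT74E2, called higher but outside the name rule, therefore formed no row. Among the 10 rows with at least 2 measured genes, 7 had genes on both sides of 0. No background was computed for that count, and 44 of the 78 measured UGT genes were above 0. Some of these rows crossed 0 by small values that depend on scaling. UGT85A5, the only measured gene above 0 in its row at 0.07, became -0.05 after TMM scaling. AT2G18570, in a row wholly above 0, also went from 0.07 to -0.05. In the row from AT3G46650 to AT3G46720, UGT76E11 had a log2 ratio of 1.63 and AT3G46700, with 98 and 67 reads, one of -0.60. In the row that holds UGT71C1, UGT71D1 had 51 and 42 reads and UGT71C2 had 13 and 18. The UGT73B1, UGT73B2 and UGT73B3 row differed by less, with log2 ratios of -0.04, -0.02 and 0.02, the last of which became -0.11 after TMM scaling.

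**Figure D3:**
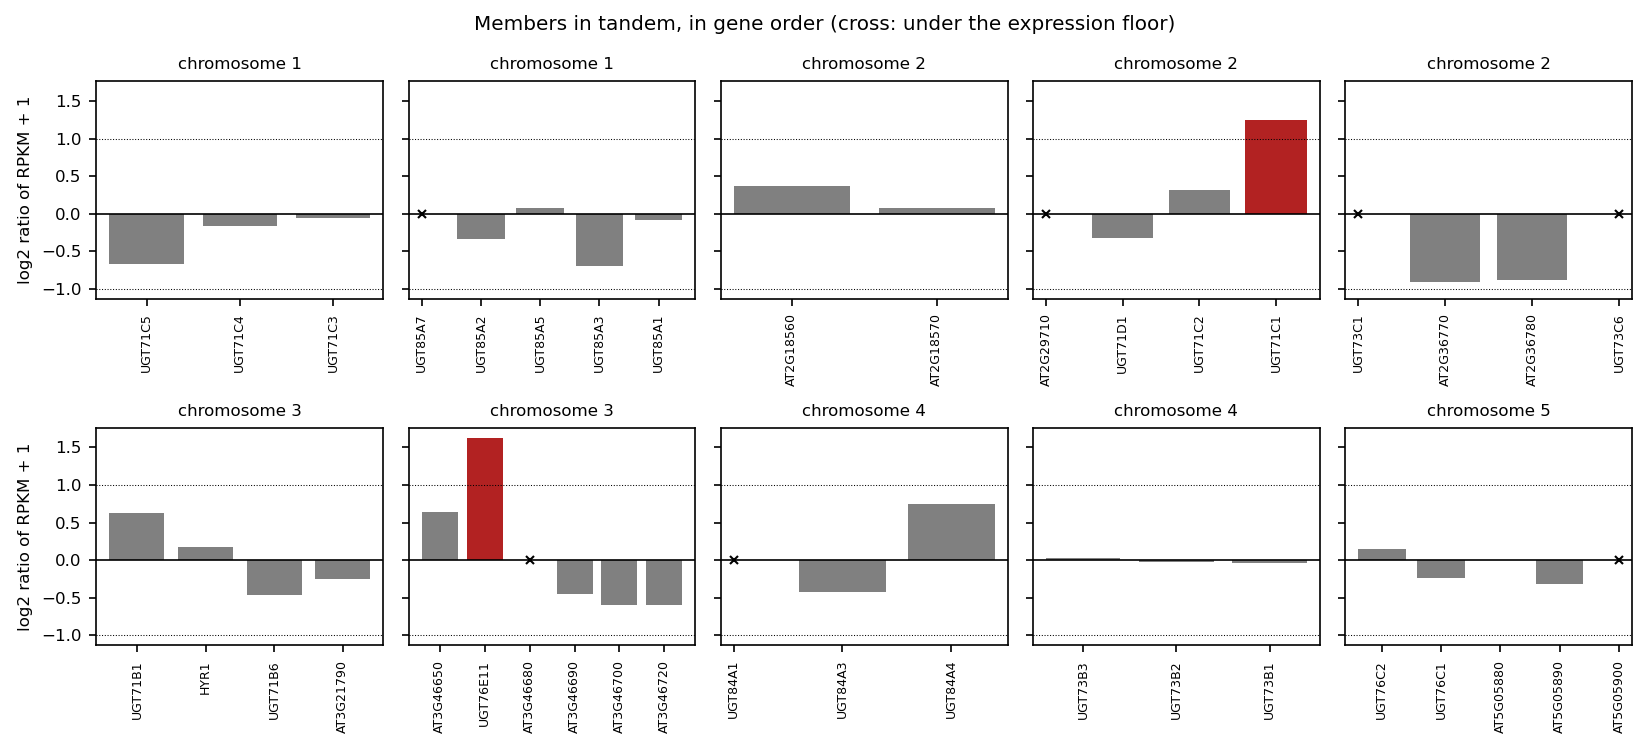
Log2 ratio of RPKM + 1, crwn1 crwn2 over wild type, for the 10 rows of tandem genes with at least 2 measured genes, in gene order; crosses mark genes under the expression floor and dotted lines a 2-fold difference. Red bars are UGT71C1 and UGT76E11, the only called genes in these 10 rows, and AT5G05880 lies at 0.

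Several genes that supply the UDP-sugar donors were higher in crwn1 crwn2. Of 22 measured genes of this list 9 were called higher, where 6.34% of all measured loci were, and none lower. Of the 9, 4 passed the floor only through crwn1 crwn2 (UGP2, UXS2, UXS3 and UXS5), so that the floor favoured a higher call. Reads covered 6.8% (wild type) and 8.56% (crwn1 crwn2) of UXS2 and 6.51% and 9.73% of UXS3, so these ratios rest on a small part of the transcript. For UXS5, with 2 listed models, coverage was 3.44% and 4.56%. The coverage check described below was made for UGT genes only. The median log2 ratio of the 22 genes was 0.51. After TMM scaling 6 were higher, against 4.8% of all measured loci, and the median was 0.39. UGP1, which makes UDP-glucose, had 243 and 544 reads (log2 ratio 1.08). It was not called after TMM scaling, at 0.94. RHM1, which makes the UDP-rhamnose that UGT78D1 uses, had 195 and 474 reads (1.19). The related RHM2 had 183 and 285 reads (0.55) and RHM3 had 101 and 149 (0.47), and neither was called. UGD3 and UDG4, of UDP-glucuronic acid synthesis, had 151 and 361 reads and 68 and 231 reads. The lowest ratio was that of the epimerase gene UGE3, with 58 and 32 reads (-0.87).

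**Figure D4:**
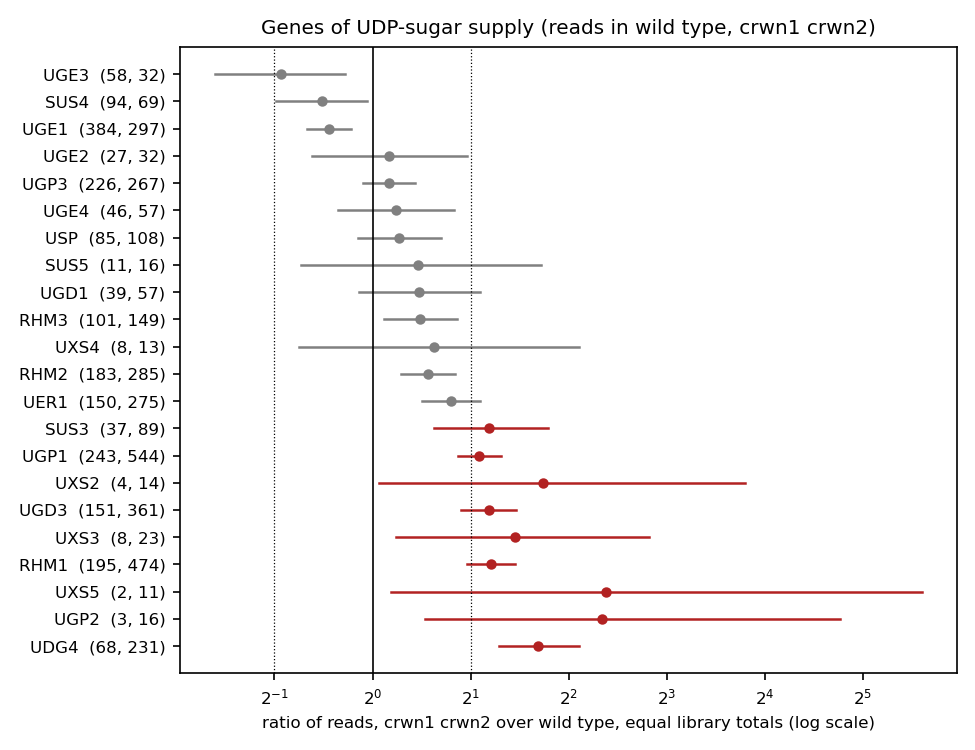
Read ratio of crwn1 crwn2 over wild type for the 22 measured genes of UDP-sugar supply, on a log scale, with exact 95% intervals as lines and the reads in wild type and crwn1 crwn2 in brackets. Red marks the 9 genes called higher, and UGE3, SUS4 and UGE1 lie to the left of equality.

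Flavonoid genes other than UGTs were mostly too low in wild type to compare. All 7 measured genes of the flavonoid backbone and its regulators were called higher, where 6.34% of all measured loci were. After TMM scaling 6 were, against 4.8% of all measured loci. Of the 7, 5 passed the floor only through crwn1 crwn2, which favours a higher call. The 2 that passed it in wild type were CHS, the entry enzyme, with 48 and 304 reads, and CHI, the next, with 19 and 54. Among all 13219 loci over the floor in wild type, 518 were called higher. Enzymes that inactivate hormones by other routes had 1 gene higher and 2 lower of 14 measured, where 6.34% and 4.53% of all measured loci were. TMM scaling took GH3.3, the gene called higher, from a log2 ratio of 1.04 to 0.91, under the threshold. CYP94B3, which oxidises jasmonate conjugates, had 335 and 46 reads. In the xenobiotic and oxylipin list 2 of 13 measured genes were higher (6.34% of all measured loci), GSTU25 with 14 and 77 reads and GSTU24 with 26 and 69. The other 11 were not called, among them GSTU19 with 590 and 852 reads and CYP81D11 with 127 and 129.

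Counting limits some of these levels. Of the 78 measured UGT genes, 11 had less than 50% of the coverage that their reads would give if spread evenly, in both libraries. Of these, 7 had 1 listed model, among them UGT75B1, and their levels and ratios rest on a part of the transcript. For the rest, among them UGT72B1 and UGT73B2, the coverage of 1 model was set against the reads of 2 models. That lowers their coverage against the expectation, so the comparison cannot decide for them. Of the 119, 8 had 2 transcript models listed, whose shared reads may be uncounted. In 86 of the 119 genes no 49-base word recurs in the genome, and in 4 more than 10% do.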

How the data were processed

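For every transcript model the authors deposited a count of unique reads, per the file headers. Their deposited RPKM could be recomputed from the count, the model's length and the total in the header. The deposited coverage is the percent of a model's bases with a read. TAIR10 is the build in the submitters' processing notes. For the aligner and the strand setting, the record is: not given in the sources used here.

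Values of a locus's models were added. Genotypes were compared by log2 of (RPKM + 1), crwn1 crwn2 over wild type, on all 21808 loci. Intervals are exact conditional binomial (Clopper-Pearson) 95% intervals of the read ratio for equal totals. A count of 0 allows up to 3 counts, or 1.43 CPM (wild type) and 1.36 CPM (crwn1 crwn2). TMM factors came from edgeR 4.0.16, on the counts. Coding sequences were compared by global alignment with Biopython 1.88. The calling step was tested on simulated data with counting error only, so that test does not cover variation between plants or library preparations.

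Members, lists and rules were chosen with earlier results of these data known. Named genes were every called gene, those with a known substrate and 10 reads in a library, the 8 with the highest wild-type RPKM, and neighbours of called genes in tandem rows. Genes near the 2-fold threshold, UGT genes outside the name rule, genes of other glycosyltransferase kinds and those under the floor were added after their values were seen. Of 52 genes with a listed substrate, 35 were used. No protein table was given, so translated coding sequences replaced it. The second signature pattern was chosen after seeing the data.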

Additional observations from a re-analysis of the deposited data

How the results depend on the processing

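No paired analysis was possible because each genotype had 1 library. The count of 5 UGT genes higher stayed within 1.5 times under an RPKM floor of 5 (5), no floor (6), a pseudocount of 0.1 (6), CPM (6), TMM scaling (4) and loci with 1 listed model (5). It became 11 at 1.5-fold and 0 at 4-fold. The count of 2 lower became 4 with a pseudocount of 0.1, 7 at 1.5-fold and 0 at 4-fold, and 3 with TMM scaling, when AT2G36770 was called. All-locus shares at 1.5-fold were 13.8% higher and 8.3% lower, and at 4-fold 0.896% and 0.75%. With a pseudocount of 0.1 these shares were 7.29% and 4.97%, in CPM 6.79% and 4.7%, and with TMM scaling 4.8% and 5.74%. An RPKM floor of 5 left 59 UGT genes measured, with shares of 6.14% and 4.8%. Without a floor all 119 counted as measured, with shares of 4.59% and 3.13%. TMM scaling turned the split of all loci from 912 higher and 652 lower to 691 and 826.

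Restricting the genes to those with the UGT signature depended on the pattern, and both searches of translated coding sequences were added after seeing the data. With the stricter first pattern 45 measured genes remained, 3 higher and 1 lower, since UGT78D1, UGT76E11 and UGT76E1 lack it. With the looser second pattern 59 remained, 5 higher and 2 lower. The second was written because the first missed numbered UGT genes, and its counts are no independent support.

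Of 120 values of 40 named genes under a pseudocount of 0.1, TMM scaling and CPM, 114 left the gene called or not called as before. AT5G59070, with 10 and 4 reads, passed the 2-fold threshold with a pseudocount of 0.1 (-1.32) and in CPM (-1.04). It stayed not called because its interval of 0.087 to 1.32 included equality. UGT72E2 lost its call with TMM scaling (0.91). Genes just inside the threshold gained one: AT4G27560 with a pseudocount of 0.1 (1.04) and CPM (1.01), AT2G36770 with a pseudocount of 0.1 (-1.05) and TMM scaling (-1.02), and AT2G36780 with a pseudocount of 0.1 (-1.01). With 1 library per genotype none of these replaces a replicate.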
